A study of Arabidopsis thaliana with 9 samples.

Results

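The genes that make abscisic acid (ABA), a hormone known for drought response and seed dormancy, were followed in whole wild-type Arabidopsis thaliana seedlings given the hormone itself. The set holds 10 of the 37336 gene loci in the count table and was named by locus: the 5 NCED genes NCED2, NCED3, NCED5, NCED6 and NCED9, and the 5 genes ABA1, ABA2, ABA3, ABA4 and AAO3. Col-0 seedlings left their plates 3 days after germination for flasks holding 3 ml of liquid MS medium, and grew on for 7 days under long days (16 h light, 8 h dark, 22 °C). They were then given fresh medium with 10 µM ABA (3 libraries) or with 0.1% DMSO (mock, 3 libraries) for 3 h. No transgene or mutation is named for either group, the DMSO content of the ABA medium is not stated, and how many seedlings went into a library is not stated. Another treatment of the study, 10 µM of a compound called iCB, was not analysed here.

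ABA is made from carotenoids of the plastid. Zeaxanthin epoxidase, the product of ABA1, forms violaxanthin, and ABA4 is needed for the next pigment, neoxanthin. The NCED enzymes, cis-epoxycarotenoid dioxygenases, cleave these epoxycarotenoids to xanthoxin, a step widely held to limit the rate of the pathway. In the cytosol the xanthoxin dehydrogenase ABA2 makes abscisic aldehyde and the aldehyde oxidase AAO3 makes ABA. AAO3 needs a molybdenum cofactor that the sulfurase ABA3 activates.

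Total counts were 22449479 to 22722904 in ABA libraries and 21585450 to 22528897 in mock libraries. Levels are in CPM, counts scaled to a common library size with TMM factors. Leaf and root markers were all detected in both groups: the 3 leaf mesophyll markers summed to 20079.6 to 23428 CPM in ABA and 20372 to 22116 CPM in mock. The 4 root markers summed to 73.3 to 83.9 CPM in ABA and 166 to 240 CPM in mock, and 2 of them were lower. These were the nutrient transporter genes PHT1;1 (27.8 CPM in ABA, 128 CPM in mock) and NRT2.1 (1.9 and 23.9 CPM). The other 2 were not called: CASP1 averaged 35.3 CPM in ABA and 39.2 CPM in mock, and EXPA7 12.9 and 10.4 CPM. The 5 seed markers were close to absent, with sums of 0.147 to 0.334 CPM in ABA and 0.0426 to 0.287 CPM in mock, and LEC1 had no count in any library. The 4 guard cell markers, of which 1 was called higher and 3 lower, summed to 36.1 to 41.5 CPM in ABA and 32.9 to 34.7 CPM in mock. KAT1, the higher one, averaged 25.3 CPM in ABA and 9.5 CPM in mock and outweighed the other 3 in the sum. In ABA and mock, FAMA averaged 9.93 and 15.6 CPM, MYB60 1.68 and 6.39 CPM, and HT1 1.55 and 2.4 CPM. Over all tested genes 31.0% were called higher and 29.4% lower. These are bulk samples, so fewer cells of a type and less RNA per cell cannot be told apart.

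Of the 10 genes, 7 were higher in ABA by edgeR's quasi-likelihood test, with Benjamini-Hochberg adjusted p below 0.05 over 21092 tested genes: NCED3, NCED2, ABA1, AAO3, NCED9, ABA4 and ABA3. ABA2 was not called, and NCED5 and NCED6 had too few counts to be tested. Over all tested genes 31.0% were called higher and 29.4% lower, so a call by itself sets few genes apart here. The median log2 fold change, ABA minus mock, was 1.68 over the 8 tested members and -0.01 over all tested genes. NCED2 and NCED9 held at most 3 and 7 counts in a mock library, below the filter's minimum of 10, so they entered the test only through their ABA libraries and neither the median nor a tally over the tested members is support for a change of the set. The ABA libraries lay above all mock libraries in CPM for 7 of the 8 tested members, NCED2 and NCED9 among them, and for 34.5% of all tested genes. They did so for NCED5 too, which was not tested and is outside that share.

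**Figure D1:**
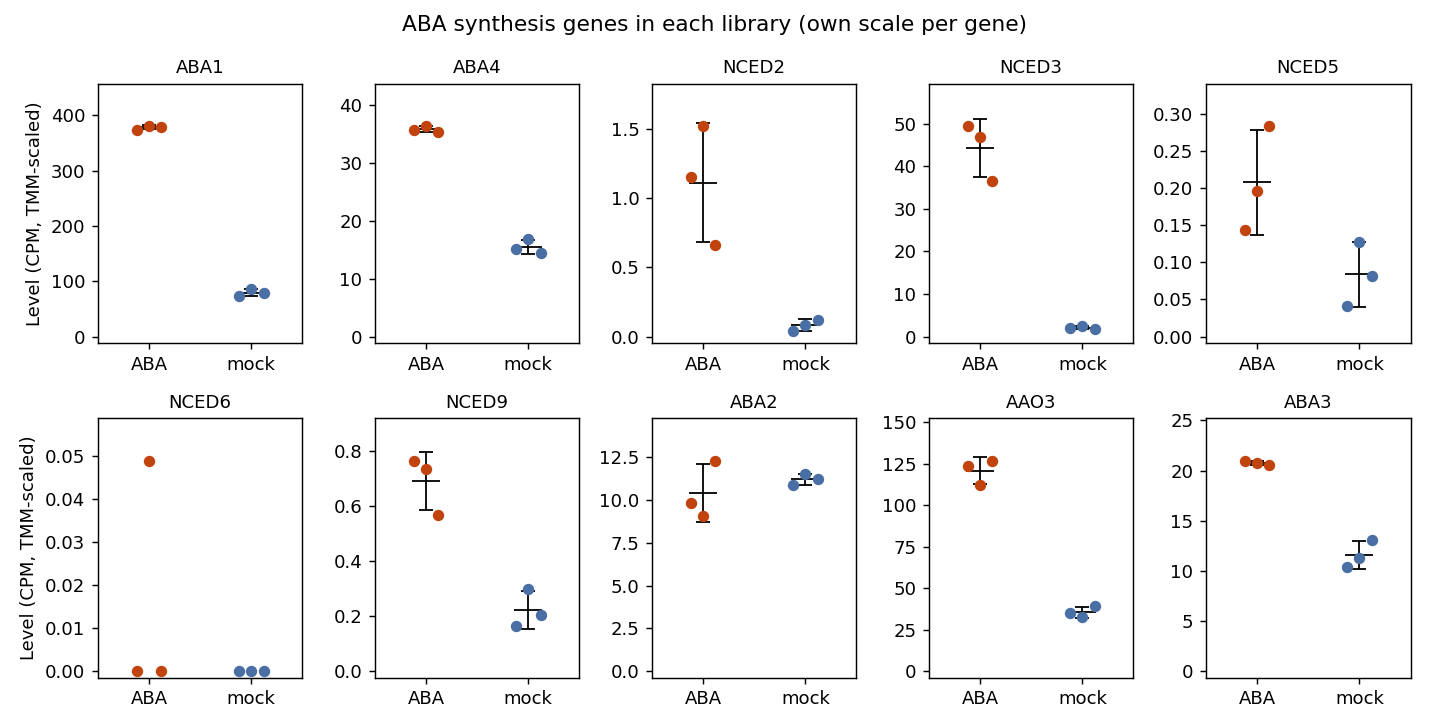
Level of each of the 10 genes in each library, in CPM after TMM scaling (vertical axes, own scale per gene), for 3 ABA libraries and 3 mock libraries (horizontal axis). Points are libraries, and bars are mean ± SD except for NCED6, which had 1 count in all. The groups overlap for ABA2 and NCED6 and stand apart for the other 8 genes. For NCED5 the nearest ABA and mock libraries held 3 counts each and stand apart only through the scaling.

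ABA1 opened the pathway and had the highest level per length of the set in both groups. ABA1 (AT5G67030, chr5:26753469-26757402, minus strand, 16 exons; all positions are of the build TAIR10.1) had 374, 381 and 379 CPM in ABA libraries, against 72.5, 85.4 and 79.6 CPM in mock libraries. The ABA libraries were almost alike and every one was far above the highest mock library. ABA1 averaged 378 ± 3.65 CPM in ABA and 79.2 ± 6.45 CPM in mock (SD, n = 3 each), which gives 4.77-fold, or 2.26 ± 0.08 (SE) on the log2 scale (edgeR adjusted p = 5.16e-08). Of the tested genes 3.85% had a higher log2 fold change.

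ABA4 (AT1G67080, chr1:25045151-25047103, minus strand, 5 exons), whose product acts at the neoxanthin step, had 35.7, 36.4 and 35.3 CPM in ABA libraries. It had 15.1, 16.8 and 14.4 CPM in mock libraries, all below the ABA libraries. Its log2 fold change was 1.21 ± 0.07, or 2.32-fold (edgeR adjusted p = 1.81e-06), smaller than that of ABA1.

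The window upstream of the annotated start of ABA1 holds the letters ACGTG, the core of the ABA-responsive element that bZIP factors of the ABF family are known to bind, and that of ABA4 does not. In the 250 bases before each start, searched on both strands, 3 of the 10 members hold ACGTG or its reverse complement CACGT, namely ABA1, ABA3 and NCED9. The same is true of 22.9% of 27443 protein-coding promoters of that length, so 3 of 10 is close to the background. In 1000 bases it is 8 of 10 members and 54.4% of promoters. A match is a description of letters and not a bound site. The windows of the 3 members with a match are shown 5′ to 3′ on the gene's strand, with the window of NCED3, the gene of the set that moved most, for comparison. They were read from the RefSeq TAIR10.1 genome, with ACGTG and CACGT in capitals: ABA1 at chr5:26757403-26757652 (minus strand), ABA3 at chr1:5659120-5659369 (plus), NCED9 at chr1:29492876-29493125 (minus) and NCED3 at chr3:4834016-4834265 (minus).
ABA1: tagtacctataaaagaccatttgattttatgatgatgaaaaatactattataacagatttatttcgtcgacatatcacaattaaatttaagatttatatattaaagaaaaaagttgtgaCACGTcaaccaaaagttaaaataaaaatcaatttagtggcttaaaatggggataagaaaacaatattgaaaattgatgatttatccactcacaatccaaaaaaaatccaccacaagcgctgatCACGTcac
ABA3: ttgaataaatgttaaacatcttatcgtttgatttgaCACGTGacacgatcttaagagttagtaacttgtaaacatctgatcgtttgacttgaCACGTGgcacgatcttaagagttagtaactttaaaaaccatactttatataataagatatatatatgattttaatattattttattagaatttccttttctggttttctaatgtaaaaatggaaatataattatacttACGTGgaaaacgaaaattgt
NCED9: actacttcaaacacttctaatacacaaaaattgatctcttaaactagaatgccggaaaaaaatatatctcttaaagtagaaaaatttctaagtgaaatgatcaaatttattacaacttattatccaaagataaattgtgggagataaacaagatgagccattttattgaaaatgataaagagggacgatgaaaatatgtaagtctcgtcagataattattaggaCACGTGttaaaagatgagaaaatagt
NCED3: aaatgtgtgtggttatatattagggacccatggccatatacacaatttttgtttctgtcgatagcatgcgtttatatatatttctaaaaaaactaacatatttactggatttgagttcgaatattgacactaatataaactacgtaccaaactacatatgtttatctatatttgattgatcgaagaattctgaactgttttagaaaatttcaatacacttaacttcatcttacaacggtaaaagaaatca

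ABA3 has 5 matches, counted on each strand, because 2 of its sites are the palindrome CACGTG, which reads as the core on both strands. NCED9 has 1 such palindrome, whose first letter lies 26 bases before the annotated start. That start is only 7 bases before the coding sequence. ABA1 has 2 matches, 131 and 8 bases before its start. CACGTG is present in 6.49% of all promoters of this length. NCED3 has no match in 250 bases and 1 in 1000 bases.

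The cleavage step is where the set moved most, and NCED3 carried nearly all of it. The 5 NCED genes have 1 exon each and stand on chromosomes 1, 3 and 4. Their coding sequences are 56.9% to 70.25% identical in pairs. NCED3 is closest to NCED9 (70.25%), and NCED6 is the most distant member, at 56.9% to 59.7% identity with the others. Of 1665 alignment columns without a gap, 669 carry the same base in all 5 genes. The 60-base stretch with the most shared bases (45 of 60) is printed by gene, capitals marking the bases that all 5 share, to show how much a read in the most conserved part can still tell the genes apart. The stretches lie at chr4:10143644-10143703 (plus strand) for NCED2, chr3:4832395-4832454 (minus) for NCED3, chr1:10572376-10572435 (plus) for NCED5, chr3:8762399-8762458 (plus) for NCED6 and chr1:29491606-29491665 (minus) for NCED9, in TAIR10.1.
NCED2: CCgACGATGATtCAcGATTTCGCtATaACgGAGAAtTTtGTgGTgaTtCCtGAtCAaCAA
NCED3: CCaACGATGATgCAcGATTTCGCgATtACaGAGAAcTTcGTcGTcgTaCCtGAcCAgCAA
NCED5: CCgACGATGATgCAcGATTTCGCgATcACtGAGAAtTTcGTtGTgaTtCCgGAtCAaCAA
NCED6: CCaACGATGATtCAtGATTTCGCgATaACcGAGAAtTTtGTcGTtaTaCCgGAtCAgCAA
NCED9: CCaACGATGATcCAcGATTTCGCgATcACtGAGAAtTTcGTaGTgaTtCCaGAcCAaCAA

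The longest run that is the same in any 2 of the coding sequences is 42 bases, between NCED3 (chr3:4832521-4832562, minus strand) and NCED9 (chr1:29491732-29491773, minus strand). Reads that lie wholly inside such a run cannot be assigned to 1 of the genes, and how the counting step treated them is not given in the sources used here. It is shown because NCED9 has few counts and NCED3 many.
NCED3 and NCED9: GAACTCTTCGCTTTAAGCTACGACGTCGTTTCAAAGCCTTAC

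NCED3 (AT3G14440, chr3:4831286-4834015, minus strand), the NCED gene best known for induction by drought, had 49.5, 46.8 and 36.6 CPM in ABA libraries. It had 2.07, 2.39 and 1.76 CPM in mock libraries. Every ABA library held at least 772 counts of it and no mock library more than 56. NCED3 averaged 44.3 ± 6.83 CPM in ABA and 2.07 ± 0.312 CPM in mock (SD, n = 3 each), a log2 fold change of 4.42 ± 0.16 or 21.3-fold (edgeR adjusted p = 1.33e-07). Only 224 of the 21092 tested genes (1.06%) had a higher log2 fold change.

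NCED2 (AT4G18350, chr4:10142255-10144646, plus strand) had 24, 31 and 14 counts in ABA libraries, against 1, 2 and 3 counts in mock libraries. In CPM that is 1.11 ± 0.428 in ABA and 0.0832 ± 0.0409 in mock (SD, n = 3 each). The groups do not overlap, but the level in ABA stays far below that of NCED3. Its log2 fold change was 3.65 ± 0.52, or 12.5-fold (edgeR adjusted p = 3.26e-04), an SE that is too small with 6 counts in all mock libraries together. The ratio of pooled counts was 13.3, with an exact 95% interval of 5.79 to 37.4 that covers counting error only.

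NCED9 (AT1G78390, chr1:29490705-29492875, minus strand), known with NCED6 from developing seeds, had 16, 15 and 12 counts in ABA libraries, against 4, 7 and 5 counts in mock libraries. It averaged 0.689 ± 0.105 CPM in ABA and 0.223 ± 0.0683 CPM in mock (SD, n = 3 each). Its log2 fold change was 1.61 ± 0.37, or 3.05-fold (edgeR adjusted p = 0.005). The ratio of pooled counts was 3.1, with an exact 95% interval of 1.71 to 5.89 from counting error. The seed markers beside it were near 0 in both groups. NCED3, which shares the 42-base run with it, was higher in the same libraries, and the part of its reads in the counts of NCED9 was not tested.

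NCED5 (AT1G30100, chr1:10571310-10573365, plus strand) had 3, 4 and 6 counts in ABA libraries, against 1, 3 and 2 counts in mock libraries. Its ABA libraries lay above its mock libraries in CPM, the lowest at 0.143 CPM in ABA and the highest at 0.128 CPM in mock and each from a library with 3 counts. The ratio of pooled counts was 2.5, with an exact 95% interval of 0.886 to 8.01, so a change was not detectable at this depth. NCED6 (AT3G24220, chr3:8761419-8763303, plus strand) had 1 count in the ABA libraries together and 0 in the mock libraries, which allows up to 3 counts over the group or 0.0416 CPM in mock.

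Summed per length, the family stood at 19, 18.2 and 14.1 CPM per kb of exon in ABA libraries, against 0.871, 1.11 and 0.832 CPM per kb in mock libraries. The ratio of the means was 18.3, and the groups do not overlap (exact two-sided permutation test, p = 0.1, the smallest that 3 against 3 libraries can give). NCED3 made up 95.3%, 94% and 95.2% of that sum in ABA libraries. It made up 87%, 78.8% and 77.7% in mock libraries. The share was therefore higher in every ABA library, at 94.8% ± 0.706 in ABA and 81.1% ± 5.07 in mock (SD, n = 3 each; exact permutation test, p = 0.1). NCED9 made up 1.85% ± 0.00615 in ABA and 10.8% ± 1.88 in mock (SD, n = 3 each), although its own level was higher in ABA. These shares of NCED9 rest on a total of 43 counts in ABA and 16 in mock, so the very small SD in ABA does not show precision. NCED2 held 2.65% ± 0.762 in ABA and 3.79% ± 2.16 in mock, a difference within the spread between libraries (exact permutation test, p = 0.6). NCED5 held 0.623% ± 0.32 in ABA and 4.24% ± 1.72 in mock, on a total of 13 counts in ABA and 6 in mock.

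**Figure D2:**
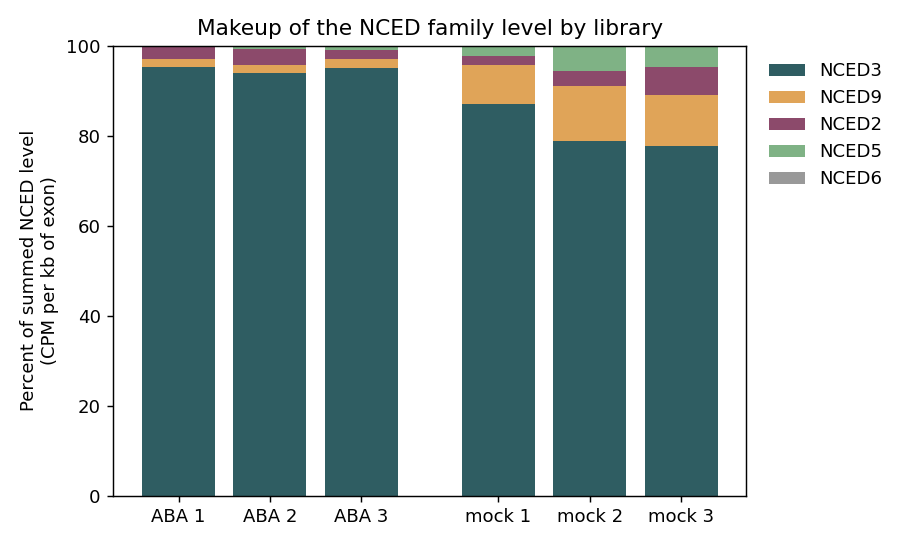
Percent of the summed NCED level (CPM per kb of exon, vertical axis) made up by each of the 5 NCED genes in each of 3 ABA and 3 mock libraries (horizontal axis). NCED3 makes up 94% to 95.3% in the ABA libraries and 77.7% to 87% in the mock libraries.

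Beyond the cleavage step the genes parted: AAO3 and ABA3 rose and ABA2 was not called. ABA2 (AT1G52340, chr1:19489794-19491650, minus strand, 2 exons) had 9.83, 9.05 and 12.3 CPM in ABA libraries, against 10.9, 11.5 and 11.2 CPM in mock libraries. The groups overlap, with 1 ABA library above and 2 below all mock libraries. Its log2 fold change was -0.11 ± 0.12 (edgeR adjusted p = 0.477), with a normal 95% interval of -0.34 to 0.13 that is too narrow for 3 libraries a group. It was called lower with library totals (log2 fold change -0.33, adjusted p = 0.0414) and with upper-quartile factors (-0.31, adjusted p = 0.0471), which move the median log2 fold change of all genes by -0.23 and -0.21. Over all tested genes 44.8% were called lower with library totals and 43.1% with upper-quartile factors. ABA2 shares 121 exon bases with AT1G52330 and 349 with AT1G07803, both on the other strand, which held 54 to 84 and 3 to 11 counts a library. The strand setting of the counting is not given, so reads of these overlaps cannot be told apart.

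AAO3 (AT2G27150, chr2:11601727-11608450, plus strand, 10 exons) had 124, 112 and 127 CPM in ABA libraries, against 35.1, 32.5 and 39.2 CPM in mock libraries. The lowest ABA library was far above the highest mock library. Its log2 fold change was 1.76 ± 0.09, or 3.39-fold (edgeR adjusted p = 4.38e-07). The gene overlaps AT2G27160 on the other strand, which had 0 counts in every library, and its longest coding run shared with another aldehyde oxidase gene is 28 bases. AAO3 is known from guard cells and from the phloem companion cells of the vascular tissue. Of 3 markers of the companion cells, 2 were called higher and 1 lower: SUC2 averaged 151 ± 3.06 CPM in ABA and 46.2 ± 2.44 CPM in mock, AHA3 238 ± 9.66 CPM in ABA and 88.1 ± 6.8 CPM in mock, and APL 11.7 ± 0.139 CPM in ABA and 15.1 ± 0.649 CPM in mock. Their sum was 393 to 415 CPM in ABA and 143 to 159 CPM in mock, none was at 0, and their part in the result for AAO3 was not tested. Of the 4 guard cell markers 1 was called higher and 3 lower, and their part was not tested either. Over all tested genes 31.0% were called higher and 29.4% lower.

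ABA3 (AT1G16540, chr1:5659370-5665488, plus strand, 19 exons), the cofactor sulfurase, had 21, 20.8 and 20.6 CPM in ABA libraries, against 10.4, 11.3 and 13.1 CPM in mock libraries. The ABA libraries lay within a narrow band and the mock libraries were more spread, with no overlap. ABA3 had a log2 fold change of 0.84 ± 0.09, or 1.79-fold (edgeR adjusted p = 7.14e-05), the smallest among the 7 genes called higher.

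**Figure D3:**
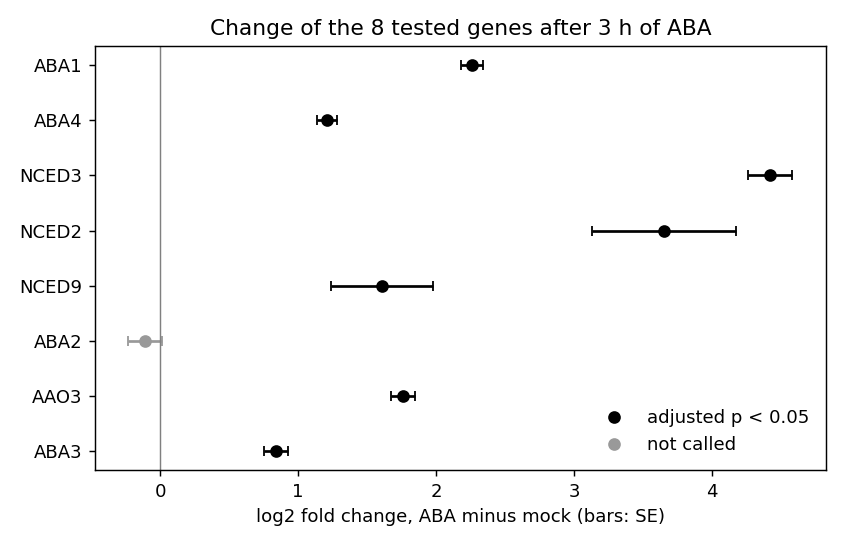
log2 fold change, ABA minus mock, (horizontal axis) of the 8 tested genes, listed down the page in the order of the pathway, with SE bars from edgeR's quasi-likelihood test. Values run from 4.42 for NCED3 to -0.11 for ABA2, the one gene in grey, which was not called.

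The spread between libraries differed among the members. ABA1 had an SD of log2 CPM of 0.0139 in ABA and 0.118 in mock, and ABA3 one of 0.0139 in ABA and 0.167 in mock. The median SD over all tested genes was 0.111 in ABA and 0.12 in mock, so these 2 genes were tighter than most in ABA. ABA2 went the other way, with 0.229 in ABA and 0.0388 in mock. NCED3 was wide in both groups, at 0.233 in ABA and 0.216 in mock. NCED2 was wider still, at 0.594 in ABA and 0.603 in mock, and NCED9 had 0.224 in ABA and 0.392 in mock, both on few counts. ABA4 was tight in ABA too, at 0.0221 in ABA and 0.116 in mock, and AAO3 had 0.0968 in ABA and 0.136 in mock. With 3 libraries a group these SDs are rough, and differences between them were not tested. In ABA libraries ABA3 held 440, 425 and 435 counts and ABA4 748, 744 and 746. The SDs of ABA3 and ABA4 in ABA are below what counting error alone gives on average, so they do not show precision.

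Treatment changed the order of the genes by level per length. In ABA the order of the means in CPM per kb of exon was ABA1 (145), ABA4 (25.4), AAO3 (22.2), NCED3 (16.2), ABA2 (8.78), ABA3 (6.98), NCED2 (0.463), NCED9 (0.317), NCED5 (0.101) and NCED6 (0.00865). In mock it was ABA1 (30.4), ABA4 (11), ABA2 (9.45), AAO3 (6.56), ABA3 (3.89), NCED3 (0.759), NCED9 (0.103), NCED5 (0.0407), NCED2 (0.0348) and NCED6 (0). Neighbours in these orders had no overlapping libraries, except NCED2 and NCED9 in ABA and NCED5 and NCED2 in mock. ABA2 thus had rank 5 in ABA and rank 3 in mock, and NCED3 rank 4 in ABA and rank 6 in mock. The exon lengths of ABA2 and AAO3 include parts that overlap genes on the other strand. How reads in those parts were counted is not given, so the levels per kb of ABA2 and AAO3 carry that limit. The level per kb of NCED3 was above that of ABA3 in every ABA library and below it in every mock library.

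**Figure D4:**
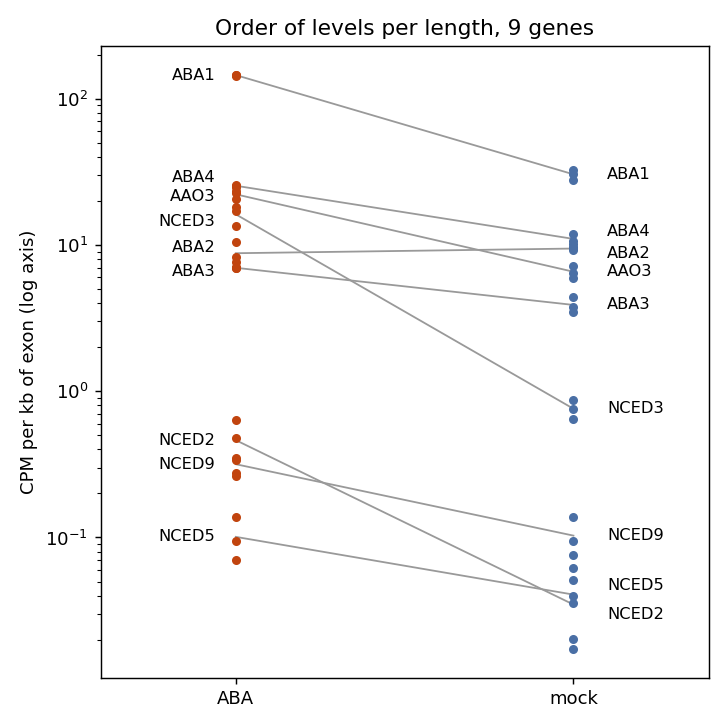
Level per length (CPM per kb of exon, log axis) of 9 of the genes in ABA (left) and mock (right). Points are libraries and lines join the group means. NCED6 is left out because it had no count in mock. The line of NCED3 crosses those of ABA2 and ABA3.

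The genes whose pattern over the 6 libraries was most like that of NCED3 were MYB74, PP2CA, KCS2, AT1G14730 and UGE5. Likeness was the root mean square distance of log2 CPM, each gene centred on its own mean, among 15823 genes outside the set with a mean of at least 5 CPM. MYB74 (AT4G05100), a MYB factor gene, was the nearest at 0.0819, with 72, 66.3 and 51.2 CPM in ABA libraries and 2.52, 3.24 and 2.46 CPM in mock libraries. As with NCED3, ABA replicate 3 was the lowest of its group and mock replicate 2 the highest. PP2CA, a protein phosphatase 2C gene, stood at 0.126, the ketoacyl-CoA synthase gene KCS2 at 0.134, the cytochrome b561 family gene AT1G14730 at 0.15 and the epimerase gene UGE5 at 0.154. This is a description over 6 libraries in 2 groups, and it is set mainly by the difference between the groups.

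Around the pathway, 33 further genes were listed by function, and of the 31 tested ones 12 were called higher and 7 lower, with a median log2 fold change of 0.14. That makes 19 of 31 called, against 60.4% of all tested genes called (31.0% higher, 29.4% lower), so the lists as a whole were near the background. Plastid precursor supply, the MEP pathway with GGPPS11, was mixed: 3 of 8 genes were higher and 1 lower, with a median of 0.06. HDR, the last enzyme of the MEP pathway, had 271, 293 and 321 CPM in ABA libraries, against 177, 189 and 187 CPM in mock libraries (log2 fold change 0.68 ± 0.08, edgeR adjusted p = 7.40e-05). HDS rose by 0.38 ± 0.07, and GGPPS11, which makes the geranylgeranyl precursor, fell by 0.32 ± 0.05. With library totals, and likewise with upper-quartile factors, 1 of the 8 was higher and 4 were lower, and HDS was not called. Of all tested genes 21.2% were higher and 44.8% lower with library totals, and 21.9% and 43.1% with upper-quartile factors. There were 3 lower genes without ABA replicate 2 and 2 without mock replicate 3.

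Of 12 carotenoid synthesis genes 6 were higher and 2 lower, against 31.0% and 29.4% of all tested genes, with a median of 0.17. The 6 became 4 with upper-quartile factors, library totals, the filter of 5 CPM and a threshold of 0.01. The count was also 4 without any single library other than ABA replicate 1, where it was 7. The share of all tested genes called higher fell too, to 21.9% under upper-quartile scaling and 21.2% under library-total scaling. Whether 4 of 12 differs from the background was not tested. PSY, phytoene synthase at the entry of the pathway, had 122, 129 and 118 CPM in ABA libraries, against 209, 221 and 186 CPM in mock libraries. It was lower in every ABA library (log2 fold change -0.74 ± 0.08, edgeR adjusted p = 5.25e-05). ZDS, a carotene desaturase, rose by 0.84 ± 0.08. BCH1, a beta-carotene hydroxylase that forms zeaxanthin, the substrate of ABA1, had 88.3, 76.9 and 76.7 CPM in ABA libraries, against 33.1, 42.2 and 39.6 CPM in mock libraries (1.07 ± 0.10, edgeR adjusted p = 2.46e-05). Its paralogue BCH2, chosen here after its values were seen, rose by 1.32 ± 0.16. LUT1, a hydroxylase of the lutein branch, fell by 0.46 ± 0.09. LUT2 of the same branch, also named after its values were seen, rose by 0.65 ± 0.08 (edgeR adjusted p = 1.17e-04). CRTISO (0.18 ± 0.06) and LUT5 (0.26 ± 0.08), named after their values were seen, lost their calls in those same settings, and CRTISO changed sign to -0.03 with upper-quartile factors and to -0.05 with library totals. CRTISO also lost its call with DESeq2, with no filter and with the replicate block, while both genes kept theirs with RLE factors and limma-voom.

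Among the other carotenoid cleavage dioxygenases, CCD8, an enzyme of strigolactone synthesis, had 6.16, 6.56 and 6.44 CPM in ABA libraries, against 0.868, 0.853 and 1.15 CPM in mock libraries. That is a log2 fold change of 2.73 ± 0.17, or 6.64-fold (edgeR adjusted p = 1.87e-06), in size between those of NCED2 and ABA1. CCD1, a cytosolic dioxygenase that makes apocarotenoids, rose by 0.79 ± 0.08. The 2 remaining genes of the list are given to complete it: CCD4 stood at 0.43 ± 0.20 (edgeR adjusted p = 0.111), and CCD7, with 8 counts in ABA and 5 in mock, was not tested.

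Unlike AAO3, the 2 tested genes among the other aldehyde oxidases were lower, as were 29.4% of all tested genes. AAO2 had 32.6, 37 and 31.9 CPM in ABA libraries, against 56.4, 54 and 63.5 CPM in mock libraries, and fell by 0.78 ± 0.09 on the log2 scale (edgeR adjusted p = 6.53e-05). AAO1 fell by 0.37 ± 0.09 (edgeR adjusted p = 0.00602). AAO4 was too low to be tested, with 35 counts in ABA and 11 in mock, but was called higher where no filter was applied and where it passed the filter without ABA replicate 2 or without any 1 of the mock libraries. Of 6 genes for the molybdenum cofactor that ABA3 sulfurates and AAO3 needs, CNX2 rose by 0.96 ± 0.07 and CNX1 and CNX5 fell, by 0.63 ± 0.06 and by 0.48 ± 0.08, while the other 3 were not called (median of the list 0.08). Over all tested genes 31.0% were higher and 29.4% lower.

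**Figure D5:**
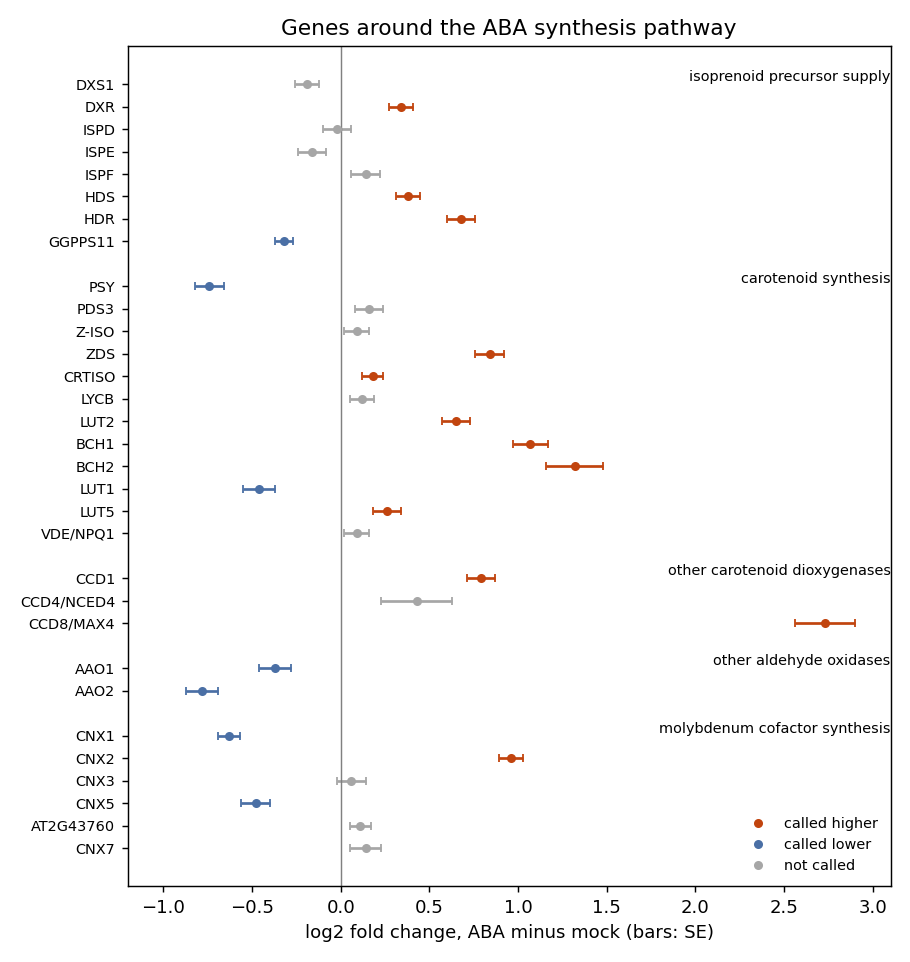
log2 fold change, ABA minus mock (horizontal axis), with SE bars, of the 31 tested genes around the pathway, grouped by function. Colours mark genes called higher, called lower or not called. CCD8 is farthest right at 2.73 and AAO2 farthest left at -0.78.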

How the data were processed

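Per the labels, RNA was extracted from whole seedlings with a plant RNA kit and made into strand-specific mRNA libraries. The submitters' processing notes name STAR, cutadapt, FastQC, DESeq2 and the build TAIR10. Which program counted the reads, on which strand and against which annotation release is not given in the sources used here, nor is any version. What the authors deposited is a table of raw, unnormalized counts per gene locus. Of 9 count columns 6 match descriptions of ABA and mock samples, and 3 match no label and were not used, so the planned comparisons with iCB were not made.

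The tests used edgeR 4.0.16 in R 4.3.3: filterByExpr, TMM scaling and the robust quasi-likelihood F test of ABA against mock on 6 libraries, with calls at adjusted p (Benjamini-Hochberg) below 0.05. The SE is the log2 fold change over the square root of F. CPM are TMM-scaled, and per-kb levels use exon length from TAIR10.1, from which symbols, positions and sequences come. Coding sequences were aligned with MAFFT 7.526. Shares were compared by exact permutation. The steps were tested on simulated data of 20936 genes, with 50 genes changed at each log2 size of 0.5, 1, 2 and 4. Of these 34%, 70%, 94% and 100% were recovered, and 25 of 174 calls were false. Far fewer genes changed there than were called in the real libraries, so the simulation does not give the error rate of the real calls. Its changed genes were drawn above a minimum mean count that NCED2 and NCED9 do not reach, so the recovery does not cover such genes.

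The members and gene lists were chosen with earlier results of these data known. All 10 members were named. From each list came up to 3 called genes with the smallest adjusted p and called genes that moved against the rest. 1 listed locus without an annotated role was dropped. Alternatives were DESeq2 1.42.0, limma-voom (limma 3.58.1), RLE, upper-quartile and library-total scaling, no filter, a mean of at least 5 CPM, a replicate block, leaving out each library, and 0.01 as threshold. The series' design text calls the replicates independent biological ones. Replicates differed by more than sampling noise in every pair (chi-square over degrees of freedom 6.64 to 14.7).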

Additional observations from a re-analysis of the deposited data

How the results depend on the processing

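The 7 members called higher stayed called, in the same direction, under every alternative in which they were tested, including without any single library. NCED2 and NCED9 were not tested with the filter of 5 CPM. log2 fold changes ran from 4.19 to 4.54 for NCED3, 3.33 to 4.0 for NCED2, 2.03 to 2.31 for ABA1, 1.53 to 1.82 for AAO3, 0.98 to 1.28 for ABA4, 1.38 to 1.86 for NCED9 and 0.61 to 0.92 for ABA3. Members called lower numbered 0, and 1 (ABA2) with library totals or upper-quartile factors. NCED5 and NCED6 were not called with no filter (edgeR adjusted p = 0.166 and 0.428). Genes called lower over the whole table numbered 6205, but 9459 with library totals and 9100 with upper-quartile factors. Genes called higher numbered 6537, but 4475 with library totals and 4618 with upper-quartile factors. In the precursor supply list 1 gene was higher with library totals or upper-quartile factors, against 3. Lower ones numbered 1, but 2 with RLE factors, no filter or the replicate block, 3 with the filter of 5 CPM, and 4 with library totals or upper-quartile factors. They ran from 1 to 3 with single libraries left out, 3 without ABA replicate 2 and 2 without mock replicate 3. In the dioxygenase list 1 gene was higher with the filter of 5 CPM, against 2. Of the other aldehyde oxidases none was higher, but 1 (AAO4) was with no filter, and 0 to 1 with single libraries left out, when AAO4 passed the filter. CRTISO changed sign to -0.05 with library totals and -0.03 with upper-quartile factors. The cause of these shifts, beyond the scaling itself and the genes a filter admits, was not tested. Replicate numbers are not said to mark a shared batch, and deviations of same-numbered libraries correlated at 0.061, 0.0763 and 0.188, not all over 0.1, so the pairing is not established. Each library correlated best with its own number. With the replicate block 6586 genes were higher and 6229 lower, no member's call changed, and NCED3 had 4.41. Among the listed genes CRTISO lost its call (edgeR adjusted p = 0.0513) and DXS1 gained one (-0.19, edgeR adjusted p = 0.0283). DXS1 lay near the threshold in the main test (edgeR adjusted p = 0.056). It was also called lower with RLE factors, upper-quartile factors, library totals, no filter and the filter of 5 CPM. The same held without ABA replicate 2 and without mock replicate 3. Depth limits NCED2, NCED5, NCED6 and NCED9.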

Other observations

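Other short motifs in the 250 bases before the annotated starts were counted the same way, on both strands. CCGAC, the core of the dehydration-responsive element, was found for 1 of the 10 members, ABA2, and in 12% of 27443 promoters. TTGAC, the core of the W-box that WRKY factors are known to bind, was found for 7 of 10 members and in 44.9% of promoters. ACGTG was found in 31.2% of the promoters of genes called higher in ABA, 19.2% of those called lower and 22.6% of those tested and not called. In 1000 bases these shares were 61.9%, 51.2% and 54.2%.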
